A study of Rattus norvegicus with 62 samples.

Results

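Cholesterol synthesis and handling genes were followed across 3 brain regions and 3 treatments of male Wistar rats. The members were a list of 33 genes: enzymes that build cholesterol, the proteins that sense it, and the proteins that move, store, convert or export it. All probe sets (the groups of oligonucleotides that report 1 transcript on the array) whose only gene symbol in the platform annotation is a member were taken. This gave 55 probe sets for 31 of the 33 genes, out of 14217 genes with a single symbol; Hmgcs1, the enzyme just before the rate-limiting step, and Npc1, the lysosomal cholesterol exporter, are not analysed here. Of the 55 probe sets, 48 passed the filter on dim probe sets in every region, and the brightest probe set of each of the 31 genes was among them. The 7 that did not pass were further probe sets of Mvk, Lss, Srebf2, Soat1, Abca1, Apoe and Lrp1.

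Rats received phenytoin at 75 mg per kg, levetiracetam at 150 mg per kg or a control solution by gastric tube, 2 times a day for 90 days. Total RNA of brainstem, hippocampus and frontal cortex was hybridised to 62 single-colour arrays, 7 in each of the 9 groups except the control frontal cortex with 6. The labels give no seizure model, no rat age and no drug level. Phenytoin is a sodium channel blocker and levetiracetam a ligand of a synaptic vesicle protein, and both are antiepileptic drugs. Values are log2(intensity + 16) after quantile normalization, differences are log2 differences, and a gene was called where limma's adjusted p was under 0.05. The pseudocount of 16 makes folds of dim probe sets too small, and levels of different probe sets cannot be set against each other.

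Cholesterol does not cross the blood-brain barrier, so the brain makes its own. Acetyl units are joined and reduced to mevalonate, mevalonate is turned into isoprenoids and squalene, and squalene is closed to lanosterol and trimmed to cholesterol. Srebf2 and Srebf1 are transcription factors that switch these genes on when sterols are low, Scap escorts them, and Insig1 and Insig2 hold them back when sterols are high. Myelin is rich in cholesterol, so oligodendrocytes are heavy producers, and astrocytes supply neurons with cholesterol on Apoe particles. Neurons clear the excess through Cyp46a1, which makes 24-hydroxycholesterol, a form that leaves the brain.

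The region markers followed the labels in the control rats: Hoxa5, a hindbrain gene, was 4.00 higher in brainstem than in hippocampus, Prox1, a dentate gyrus gene, was 2.82 above frontal cortex in hippocampus, and the difference of Tbr1, a cortical gene, was -2.59 between brainstem and frontal cortex. Tyro3, listed as a hippocampal gene, went against its label (-1.04 between hippocampus and frontal cortex). Phenytoin hippocampus replicate 7 stood apart, with a mean of 10.13 over 17 oligodendrocyte and myelin markers against 9.02 to 9.45 on the other arrays of its group. Levetiracetam frontal cortex replicate 3 had the lowest array weight, 0.176. Phenytoin hippocampus replicate 4 lacks 4799 probe sets, 5 of them members. The labels of levetiracetam brainstem replicates 1 and 2 name both drugs. The log2 ratio of 3' to 5' beta-actin probe sets, a measure of RNA integrity, was higher with phenytoin than in controls in brainstem (1.55 ± 0.16 against 1.38 ± 0.06, SD, n = 7 each, exact permutation p = 0.0111, adjusted p = 0.0437) and in frontal cortex (1.58 ± 0.14, n = 7, against 1.32 ± 0.15, n = 6, exact permutation p = 0.0146, adjusted p = 0.0437). The Gapdh ratio was 0.390 ± 0.101 with phenytoin and 0.242 ± 0.116 in control hippocampus (SD, n = 7 each, exact permutation p = 0.0227, adjusted p = 0.102).

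The first comparison asked where in the brain of rats given the control solution these genes were high. In control rats the enzymes of cholesterol synthesis were higher in brainstem than in hippocampus, all 17 of the 17 with a tested probe set, and 15 of the 17 were higher in brainstem than in frontal cortex. The exceptions were Pmvk (0.20) and Hsd17b7 (0.20), which did not pass against frontal cortex. The neuronal enzyme that removes cholesterol, Cyp46a1, went the other way and was lower in brainstem than in either forebrain region. Counting every probe set, 29 of 48 were higher and 4 lower in brainstem than in hippocampus, where 29.5% of all 18625 tested probe sets were higher and 26.9% lower. Against frontal cortex 30 of 48 were higher and 5 lower, beside 29.7% and 29.1% of all. The median difference over the 31 genes was 0.43 against hippocampus and 0.47 against frontal cortex, and over all tested probe sets 0.01 and -0.002. Spiked-in bacterial and phage transcripts were averaged as log2 intensities before normalization. In control frontal cortex they read 10.08 ± 0.14 (SD, n = 6). They read 10.46 ± 0.27 in control brainstem and 10.86 ± 0.32 in control hippocampus (SD, n = 7 each). The frontal cortex arrays also have titles of another form than the brainstem and hippocampus arrays. The spike-in signal thus differed between brainstem and hippocampus as well. Its part in any comparison between regions, and the part of the titles in those with frontal cortex, was not tested.

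The 6 mevalonate and isoprenoid genes had a median difference of 0.79 from hippocampus and 0.55 from frontal cortex. Mvk, which phosphorylates mevalonate, showed the largest difference from hippocampus among the 31 genes. Its values ran from 7.95 to 8.28 in control brainstem (median 8.09, n = 7), from 6.11 to 7.06 in hippocampus (median 6.74, n = 7) and from 6.77 to 7.43 in frontal cortex (median 7.15, n = 6). Every brainstem array lay above every forebrain array, and the forebrain groups overlapped. The difference was 1.45 (SE 0.14, 2.73-fold, adjusted p = 4.94e-14) from hippocampus and 0.97 (SE 0.14, adjusted p = 3.48e-08) from frontal cortex. Idi1, the isomerase of the isoprenoid unit, was 0.84 and 0.60 higher in brainstem than in hippocampus and frontal cortex. Fdps, which makes farnesyl pyrophosphate, was 0.81 and 0.49 higher. Acat2, the cytosolic thiolase of the first step, was 0.77 higher against both regions. Mvd, the decarboxylase, was 0.42 and 0.47 higher, and Pmvk, the second mevalonate kinase, was 0.40 higher than in hippocampus.

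The 11 genes from squalene to cholesterol had medians of 0.53 and 0.74. Fdft1, which makes squalene and is the first step committed to sterols, was 1.06 (SE 0.08, 2.08-fold) higher in brainstem than in hippocampus and 0.74 higher than in frontal cortex. Sqle, the squalene epoxidase, was 1.03 and 0.74 higher, and Cyp51, the lanosterol demethylase, 0.79 and 0.76. Sc5d, a late desaturase, showed the largest difference from frontal cortex. Its values ran from 10.07 to 10.56 in control brainstem (median 10.43), from 9.28 to 9.87 in hippocampus (median 9.74) and from 8.76 to 9.10 in frontal cortex (median 8.98). The 3 regions did not overlap, and the steps were 0.67 from brainstem to hippocampus and 0.74 from hippocampus to frontal cortex. Dhcr7, which performs the last reduction, had the same order without overlap, with differences of 0.51 and 0.36. Lss, which closes the sterol rings, was 0.88 higher in brainstem than in frontal cortex and 0.36 higher than in hippocampus. Tm7sf2 (0.71 and 0.39), Ebp (0.53 and 0.35), Nsdhl (0.43 and 0.41) and Msmo1 (0.38 and 0.20), enzymes that reduce, isomerise or demethylate the sterol nucleus, were higher against hippocampus and frontal cortex in turn. Hsd17b7, a sterol ketoreductase, was 0.33 higher than in hippocampus.

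**Figure D1:**
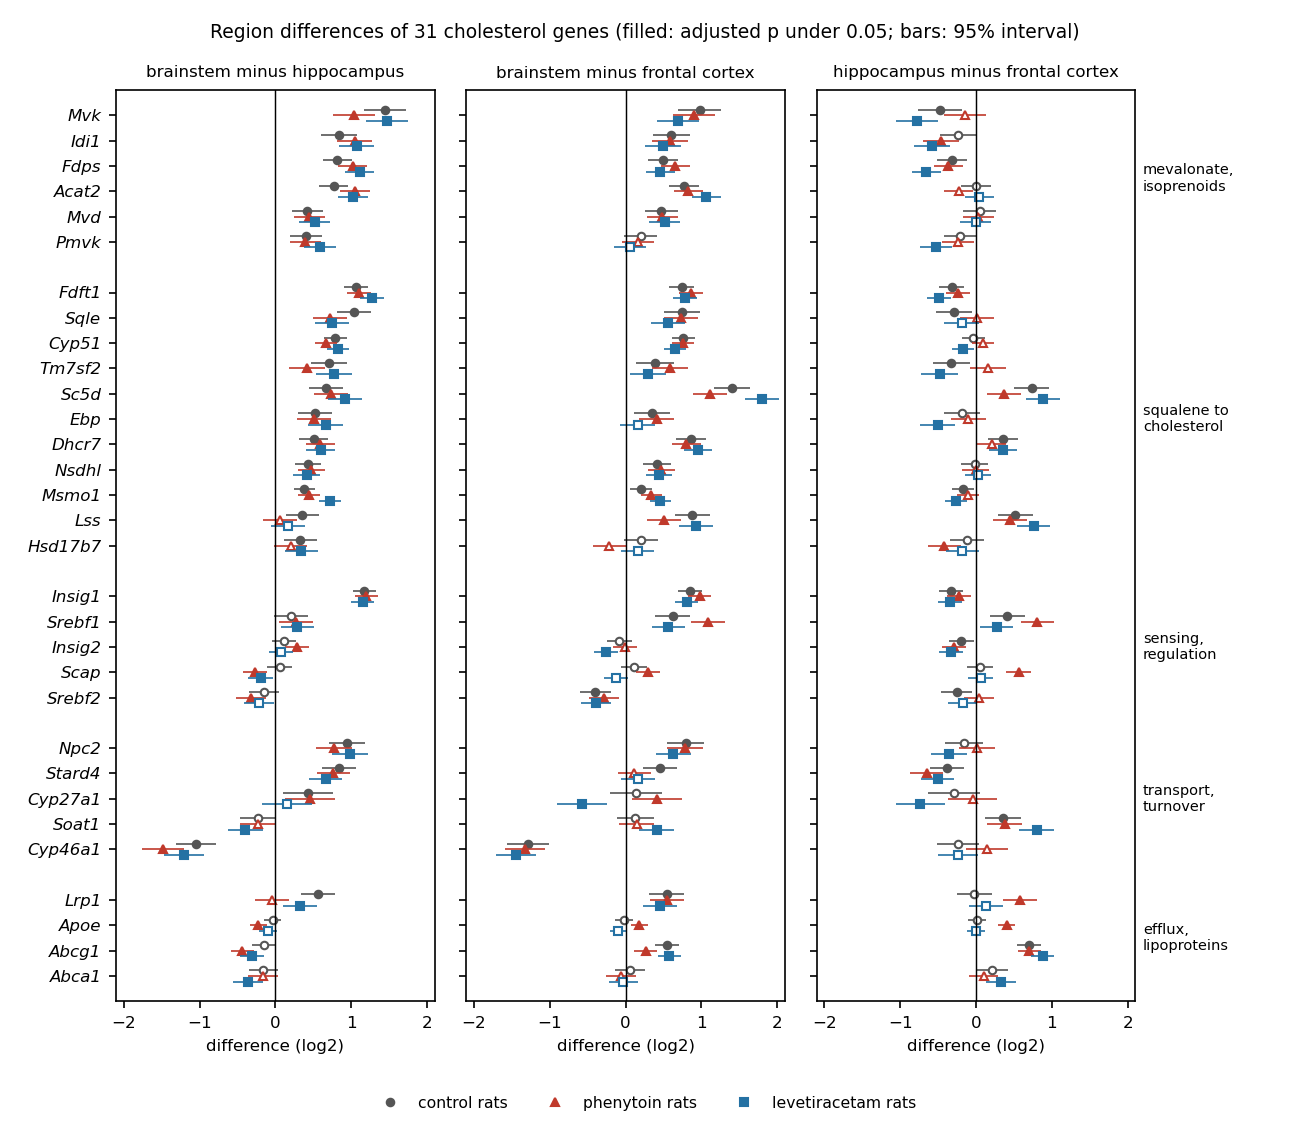
Log2 difference between regions (x axis) for the brightest probe set of 31 cholesterol genes (rows, grouped by role), in control (grey circles), phenytoin (red triangles) and levetiracetam rats (blue squares), with 95% intervals as bars and filled symbols where the adjusted p was under 0.05. The 17 synthesis genes lie right of 0 in the brainstem minus hippocampus panel in the rats of every treatment, and Cyp46a1 lies left of 0 in both brainstem panels.

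Among the sensors the 5 genes did not move together. Insig1, itself a target of the pathway it restrains, was higher in brainstem. Its values ran from 9.95 to 10.24 in control brainstem (median 10.13), from 8.70 to 9.13 in hippocampus (median 8.95) and from 9.09 to 9.45 in frontal cortex (median 9.28). The brainstem arrays stood above all forebrain arrays, by 1.17 (SE 0.08, 2.25-fold, adjusted p = 6.57e-21) from hippocampus and 0.85 (SE 0.08, adjusted p = 2.48e-14) from frontal cortex. Srebf2, the main activator of the synthesis genes, was lower in brainstem than in frontal cortex without overlap (-0.40, adjusted p = 0.00066), and its difference from hippocampus was -0.14 (adjusted p = 0.211). Srebf1, which favours fatty acid genes, was 0.62 higher than in frontal cortex. Insig2 and Scap did not pass in either comparison with brainstem, with differences between -0.08 and 0.11.

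Of the 5 transport and turnover genes, Npc2, which hands cholesterol out of the lysosome, was 0.95 higher in brainstem than in hippocampus and 0.79 higher than in frontal cortex. Cyp46a1 showed the largest fall. Its values ran from 7.41 to 8.31 in control brainstem (median 7.78), from 8.55 to 9.14 in hippocampus (median 8.95) and from 8.91 to 9.24 in frontal cortex (median 9.15). No brainstem array reached a forebrain array, and hippocampus and frontal cortex overlapped. The differences were -1.05 (SE 0.13, 2.07-fold, adjusted p = 5.1e-10) and -1.28 (SE 0.14, 2.43-fold, adjusted p = 3e-12). Cyp27a1, the sterol 27-hydroxylase, was 0.43 higher in brainstem than in hippocampus, a call that was lost with the Gapdh ratio as a covariate. Soat1, which stores cholesterol as esters, did not differ by the test from either region (-0.23 and 0.13) and was 0.36 above frontal cortex in hippocampus.

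The 4 export and lipoprotein genes showed no common direction. Lrp1, a receptor that takes up Apoe particles, was 0.56 and 0.54 higher in brainstem. Abcg1, a cholesterol exporter, was lowest in frontal cortex, which lay 0.55 below brainstem and 0.70 below hippocampus without overlap. Apoe, the main brain apolipoprotein, differed by at most 0.04 in size between any pair of regions (-0.04, -0.02 and 0.01), and Abca1, which loads Apoe particles, did not pass (-0.16, 0.06 and 0.21).

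**Figure D2:**
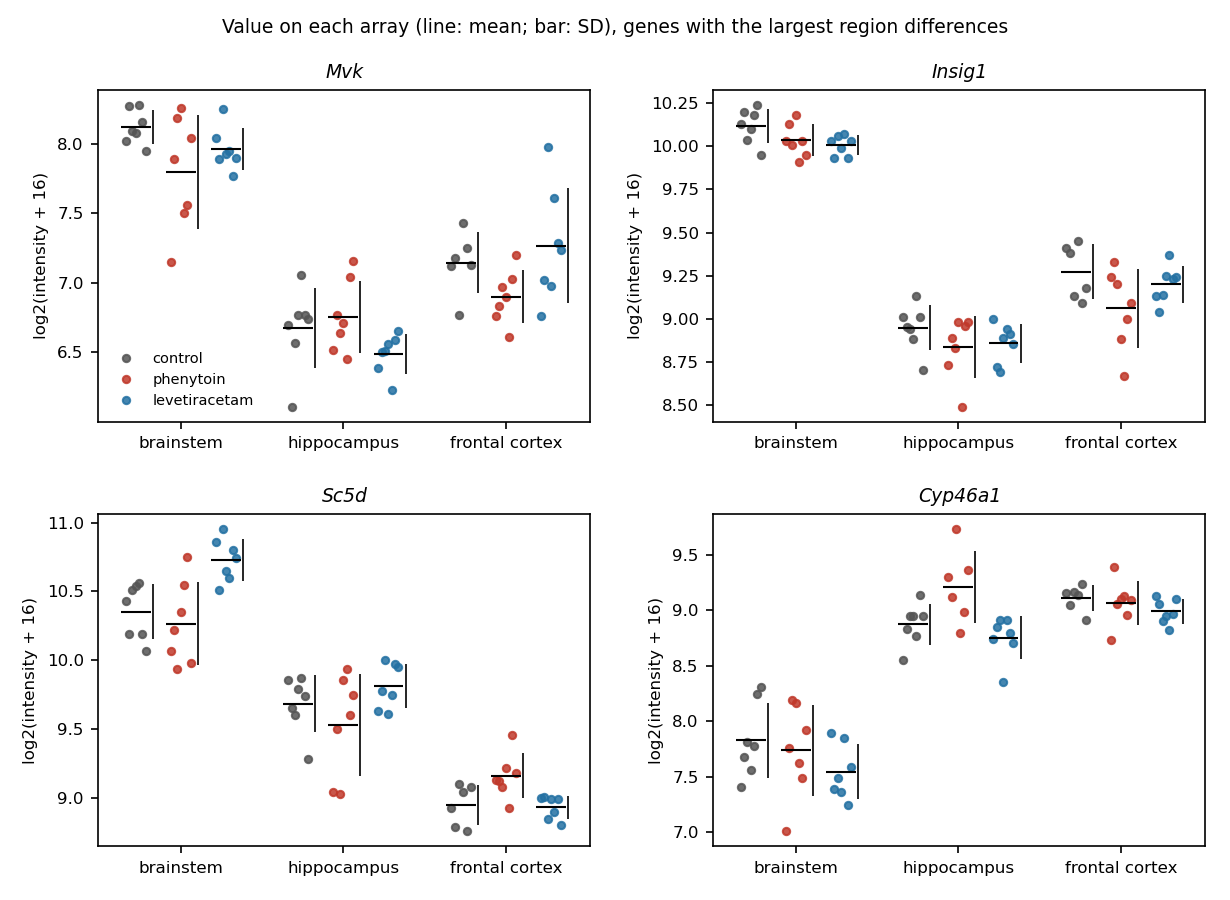
Normalized log2(intensity + 16) on each array (y axis) of Mvk, Insig1, Sc5d and Cyp46a1 in 3 regions (x axis), with control arrays in grey, phenytoin in red and levetiracetam in blue; horizontal lines are group means and vertical bars the SD. In control rats the brainstem arrays lie above all forebrain arrays for Mvk, Insig1 and Sc5d and below them for Cyp46a1.

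Hippocampus and frontal cortex differed less for these genes. In control rats 7 of 48 probe sets were higher and 12 lower in hippocampus, beside 21.6% and 24.4% of all tested probe sets. Sc5d (0.74), Abcg1 (0.70), Lss (0.52), Srebf1 (0.41), Dhcr7 (0.36) and Soat1 (0.36) were higher in hippocampus. Mvk (-0.47), Stard4 (-0.38), Insig1 (-0.33), Tm7sf2 (-0.32), Fdps (-0.32) and Fdft1 (-0.32) led those that were lower.

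The same region order was measured again in the drug-treated rats, which share no array with the controls. Called higher in brainstem than in hippocampus in the rats of all 3 treatments were 24 of 48 probe sets (18 of 31 genes), beside 21.1% of all tested probe sets, and 25 of 48 (19 of 31 genes) were called higher than in frontal cortex in all 3, beside 20.4%. Of the 17 synthesis genes, 15 were among them for hippocampus and 14 for frontal cortex. Lss, Hsd17b7, Pmvk and Ebp accounted for those that were missing. Insig1 and Npc2 were among them in both comparisons. Lower in the rats of all 3 treatments were 2 of 48 probe sets against hippocampus, beside 18.5% of all, and 3 of 48 against frontal cortex, beside 21.3%. Of the 31 genes only Cyp46a1 was lower in both comparisons in all 3, with differences of -1.48 and -1.33 in phenytoin rats and -1.21 and -1.45 in levetiracetam rats, and Srebf2 was lower than in frontal cortex in all 3. Without phenytoin hippocampus replicate 7, the number of probe sets called between brainstem and hippocampus of phenytoin rats was 38 in place of 37 (55.1% of all), and without levetiracetam frontal cortex replicate 3 the number between brainstem and frontal cortex of levetiracetam rats was 36 in place of 32 (62.7% of all).

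Markers of other cell types moved with these differences. All 17 oligodendrocyte and myelin markers were higher in control brainstem than in hippocampus (median 1.14) and 16 of 17 than in frontal cortex (median 1.69), and their mean level ran from 10.42 to 10.62 in control brainstem, 8.98 to 9.46 in hippocampus and 8.53 to 9.14 in frontal cortex. Of 13 astrocyte markers 10 were higher in brainstem in each comparison (medians 0.72 and 0.59), and of 16 neuron markers 5 were higher and 7 lower against hippocampus and 7 and 7 against frontal cortex. In whole tissue more cells of a type and more RNA per cell cannot be told apart, and the part of cell makeup in the results on cholesterol genes was not tested.

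Promoters from RefSeq (assembly GRCr8) were read for 28 of the 33 genes, in the 250 bases before the annotated start. They are shown because the synthesis genes moved together across regions and a CCAAT box, the site of the factor NF-Y that works beside the sterol-sensitive activators, is a known feature of their promoters. Some genes have more than 1 start, so the 28 genes have 31 promoters. The letters CCAAT occurred on either strand in 22 of the 31 promoters and in 12 of the 15 promoters of synthesis genes among them, against 34% of 33469 promoters. In the lines below the capitals mark CCAAT, or ATTGG where the box lies on the other strand, and each run ends at the base before the annotated start. Mvk, Idi1, Fdps and Nsdhl stand for genes that were higher in brainstem, and Cyp46a1 for the gene that was lower. All of the lines shown hold a box, but they differ in length. The line of Cyp46a1 has 200 bases and the others 120. The only box of Cyp46a1 begins 193 bases before the start, so a line of 120 bases would not show it. Acat2, Cyp51 and Dhcr7, whose windows hold none, were also called higher in brainstem in both comparisons in the rats of all 3 treatments. The 12 include Hmgcs1, which is not analysed on the arrays. Whether the box goes with the region differences was not tested.
Mvk (chr12:47819504-47819623, minus strand): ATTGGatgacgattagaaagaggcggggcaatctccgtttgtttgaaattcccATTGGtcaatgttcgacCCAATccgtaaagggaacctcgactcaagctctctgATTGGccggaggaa
Idi1 (chr17:66547525-66547644, minus strand): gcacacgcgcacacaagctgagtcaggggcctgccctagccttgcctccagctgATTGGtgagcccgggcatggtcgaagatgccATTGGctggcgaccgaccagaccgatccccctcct
Fdps (chr2:176804817-176804936, minus strand): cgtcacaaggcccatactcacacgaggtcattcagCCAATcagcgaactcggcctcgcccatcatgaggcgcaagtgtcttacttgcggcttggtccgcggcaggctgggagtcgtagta
Nsdhl (chrX:155817240-155817359, plus strand): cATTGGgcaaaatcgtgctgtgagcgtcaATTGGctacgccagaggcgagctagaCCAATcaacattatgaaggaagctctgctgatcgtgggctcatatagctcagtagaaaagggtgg
Cyp46a1 (chr6:133011790-133011989, plus strand): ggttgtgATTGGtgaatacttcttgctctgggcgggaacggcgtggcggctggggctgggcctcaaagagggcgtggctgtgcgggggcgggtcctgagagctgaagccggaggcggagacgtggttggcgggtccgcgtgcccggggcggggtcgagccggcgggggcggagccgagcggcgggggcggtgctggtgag
The 120 bases of Mvk hold 4 boxes, those of Nsdhl 3, those of Idi1 2 and those of Fdps 1, and the 200 bases of Cyp46a1 hold 1. Of all promoters 9.42% hold 2 or more in their 250 bases. The classical sterol regulatory element searched as TCACNCCAC on both strands was in 0 of the 31 windows and in 0.974% of all, so these letters alone marked none of them. The E-box CACGTG was in 4 (Abca1, Insig1, Sc5d and Scap), against 5.59% of all. A match describes letters in a window and shows no binding.

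Different probe sets of a gene did not always tell the same story. Of 13 genes with several tested probe sets, 0 had opposite calls between brainstem and hippocampus, and 2, Stard4 and Abcg1, had opposite calls between brainstem and frontal cortex. Stard4, which carries cholesterol between membranes, was 0.46 higher in brainstem than in frontal cortex by its brightest probe set and -0.63 by another, whose control values ran from 5.97 to 6.26 in brainstem and 6.43 to 7.07 in frontal cortex without overlap. Abcg1 was 0.55 by its brightest probe set, and -0.25 (not called) and -0.43 (called lower) by the others. The remaining probe sets of Sc5d (1.05 and 0.78), Cyp51 (0.74), Fdft1 (0.58), Idi1 (0.70) and Mvk (0.39) were called higher in brainstem than in frontal cortex like the brightest.

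The second set of comparisons asked what 90 days of each drug did to these genes within a region. Differences were small: the largest over the 31 genes and 9 comparisons was -0.75. The share of member probe sets called ran from 0 to 16.7% over the comparisons, against 0 to 16.8% of all probe sets. The gap was widest for phenytoin against levetiracetam in brainstem, where 12.5% of member probe sets and 2.98% of all probe sets were called. Each drug is compared with the same control arrays of a region, and the 3 comparisons of a region share arrays, so their values are given side by side. In each drug comparison, tested probe sets of a named member other than those given, such as further ones of Scap, Abcg1 and Sc5d, were not called.

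In brainstem phenytoin changed none of these genes by the test. The number of member probe sets called by limma was 0 of 48, beside 0.0161% of all, with 9 of 48 at an unadjusted p under 0.05 beside 1360 of all 18625. The median over the 31 genes was -0.09, with 27 of 31 below 0, against -0.01 over all probe sets, of which 51.9% were below 0. All 17 synthesis genes were below 0. The smallest p belonged to Tm7sf2, a sterol reductase, with values from 7.13 to 7.80 (median 7.68) with phenytoin and from 7.65 to 8.24 (median 7.78) in controls, a difference of -0.31 (SE 0.11, adjusted p = 0.444). The groups overlapped. Lss (-0.28), Apoe (-0.11) and Nsdhl (-0.18) followed, with adjusted p from 0.444 to 0.573.

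Levetiracetam in brainstem raised 3 synthesis enzymes and lowered another, Sqle, together with Scap and Lrp1. Called were 6 of 48 probe sets, beside 9.24% of all, and the median over the 31 genes was -0.08. Acat2 (0.23), Msmo1, a sterol demethylase (0.21) and Sc5d (0.38) rose. Scap (-0.38), Lrp1 (-0.33) and Sqle (-0.33) fell. Scap, the escort of the sterol-sensitive activators, ran from 8.46 to 8.74 with levetiracetam (median 8.58) and from 8.77 to 9.11 in controls (median 8.95). The groups did not overlap, and the adjusted p was 0.00178 (SE 0.07). Msmo1 and Scap kept their call when any 1 array was left out, and of the 6 only Scap kept it under all 12 alternatives. Without the 2 arrays labelled with both drugs the count was 3, and with the beta-actin ratio as a covariate it was 2. Of 17 oligodendrocyte and myelin markers 1 rose and 5 fell with levetiracetam (from -0.47 to 0.22, median -0.08), and their mean level ran from 10.34 to 10.48 with levetiracetam and from 10.42 to 10.62 in controls. The part of the spike-in signal and of these markers in the results was not tested.

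Between the drugs in brainstem, 6 of 48 probe sets were called, beside 2.98% of all. Srebf1 (0.42) and Scap (0.36) were higher with phenytoin. Acat2 (-0.31), Msmo1 (-0.29) and both of the called probe sets of Sc5d (-0.46 and -0.36) were lower. Msmo1 ran from 10.31 to 10.50 with phenytoin (median 10.42), from 10.60 to 10.78 with levetiracetam (median 10.70) and from 10.35 to 10.62 in controls (median 10.51). The drug groups did not overlap, and the control values lay between them and overlapped both (adjusted p = 0.00215 between the drugs). The second Sc5d probe set (-0.36) lost its call without a filter, with the beta-actin ratio as a covariate, without the arrays labelled with both drugs and in 9 of 21 fits with 1 array left out (adjusted p up to 0.0963). Acat2 lost its call with the other arrays in the fit (adjusted p = 0.0988).

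**Figure D3:**
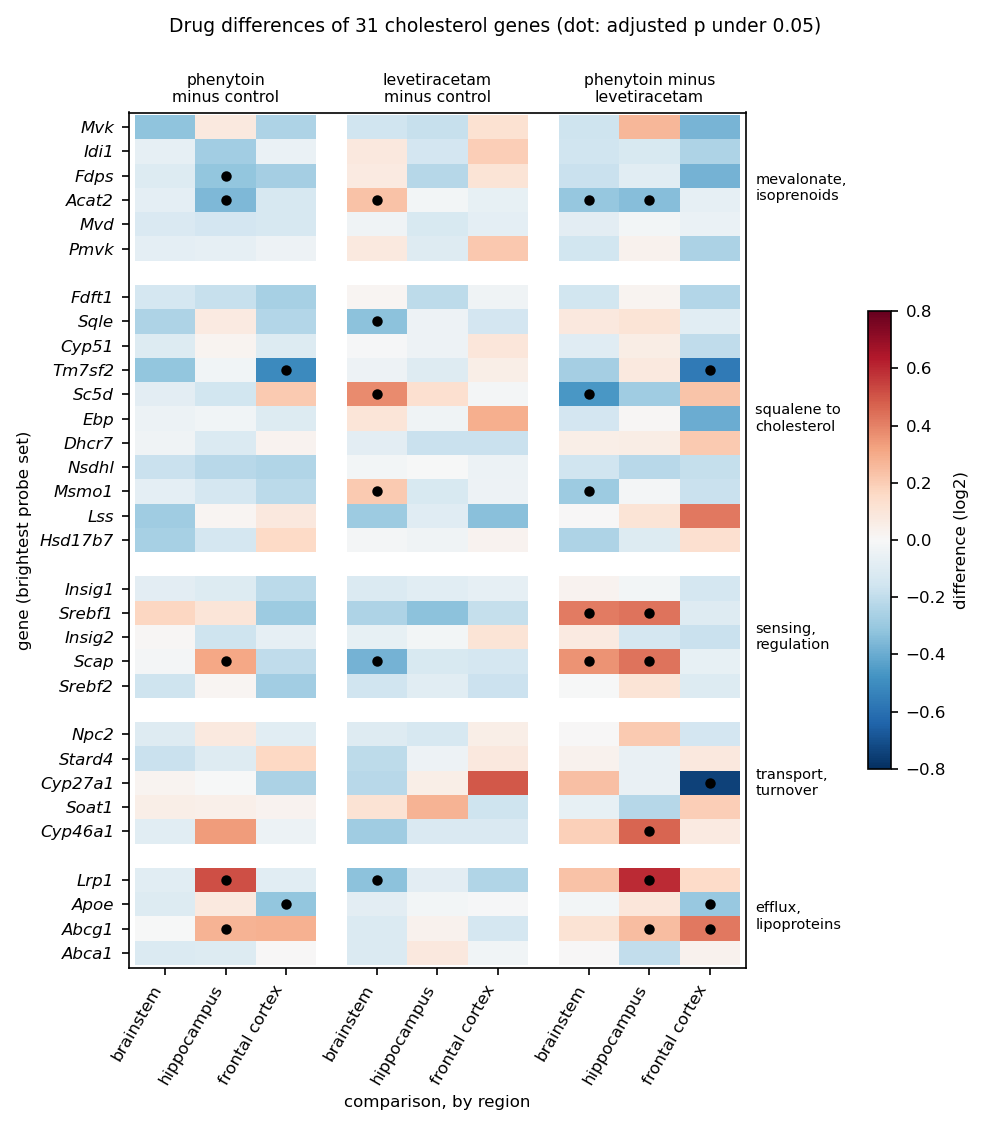
Log2 differences (colour, blue lower and red higher, scale from -0.8 to 0.8) of 31 cholesterol genes (rows, brightest probe set, grouped by role) for phenytoin minus control, levetiracetam minus control and phenytoin minus levetiracetam in each region (columns), with a dot where the adjusted p was under 0.05. Most synthesis genes are pale blue in the phenytoin minus control columns, few cells carry a dot, and no cell of levetiracetam minus control in hippocampus or frontal cortex does.

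In hippocampus phenytoin raised Lrp1, Scap and Abcg1 and lowered Acat2 and Fdps. Called were 5 of 48 probe sets, beside 9.24% of all, with a median of -0.03 over the 31 genes. Lrp1 ran from 9.27 to 9.78 with phenytoin (median 9.50), from 8.83 to 9.24 in controls (median 8.98) and from 8.67 to 9.21 with levetiracetam (median 8.90). Every phenytoin array lay above every other hippocampus array. The difference from controls was 0.52 (SE 0.10, 1.43-fold, adjusted p = 0.00331). Scap rose by 0.31 and Abcg1 by 0.28, and Acat2 (-0.36) and Fdps (-0.31) fell, with adjusted p from 0.011 to 0.0152. With the Gapdh 3' to 5' ratio as a covariate none of the 5 was called, with adjusted p from 0.131 to 0.198, and without phenytoin hippocampus replicate 5 the count was 9. Spiked-in bacterial and phage transcripts, averaged as log2(intensity + 16) before normalization, read 10.51 ± 0.17 with phenytoin and 10.86 ± 0.32 in controls (SD, n = 7 each, exact permutation p = 0.00583, adjusted p = 0.0262). Of 16 oligodendrocyte and myelin markers tested in hippocampus 2 rose with phenytoin and 15 were above 0 (median 0.18). Of 16 neuron markers 4 rose and 11 were above 0 (median 0.05, highest 0.96), and all 8 endothelium and pericyte markers were above 0 (median 0.25). The mean level of those 8 was 7.98 in phenytoin hippocampus replicate 7 and at most 7.03 on the other arrays of its group. The group medians of that level were 6.92 with phenytoin and 6.89 in controls. The part of the spike-in signal and of these cell types in the results was not tested.

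Levetiracetam in hippocampus called 0 of 48 probe sets by limma, beside 0% of all, with 5 of 48 at an unadjusted p under 0.05 beside 1680 of all 18625, a like share. Of the 31 genes 26 were below 0, with a median of -0.09 against 0.01 over all probe sets. Fdps had the smallest p, with values from 9.10 to 9.36 (median 9.15) against 9.10 to 9.60 in controls (median 9.45), a difference of -0.23 with overlapping groups (adjusted p = 0.371). Srebf1 (-0.33), Fdft1 (-0.21) and Dhcr7 (-0.18) followed, with adjusted p up to 0.458.

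Between the drugs in hippocampus 8 of 48 probe sets were called, beside 16.8% of all. Lrp1 (0.60), Cyp46a1 (0.46), Scap (0.44), Srebf1 (0.43) and Abcg1 (0.24) were higher with phenytoin. Scap ran from 8.95 to 9.36 with phenytoin (median 9.23), from 8.65 to 8.86 with levetiracetam (median 8.78) and from 8.62 to 9.01 in controls (median 8.94). The drug groups did not overlap (adjusted p = 0.000469). Lower were Acat2 (-0.34) and second probe sets of Idi1 (-0.64) and Insig2 (-0.47). The Idi1 probe set ran from 6.25 to 7.17 with phenytoin and from 7.21 to 7.88 with levetiracetam, without overlap, while the brightest probe set of Idi1 was not called. With the Gapdh ratio as a covariate the calls of Cyp46a1 (adjusted p = 0.139), Abcg1 (adjusted p = 0.0663) and Insig2 (adjusted p = 0.223) were lost, and with the beta-actin ratio those of Srebf1 (adjusted p = 0.0651) and Insig2 (adjusted p = 0.07). The spike-in signal was 10.91 ± 0.11 with levetiracetam, above the 10.51 of phenytoin (SD, n = 7, exact permutation p = 0.000583, adjusted p = 0.00524), and its part in these calls was not tested. Of 16 neuron markers 4 were higher with phenytoin and 2 lower, of 13 astrocyte markers 4 and 1, and of 16 oligodendrocyte and myelin markers 2 and 0.

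In frontal cortex phenytoin lowered Apoe and Tm7sf2. Called were 3 of 48 probe sets, all lower, beside 6.39% of all called and 1.28% called lower, and the median over the 31 genes was -0.11 against -0.03 over all. Apoe ran from 12.17 to 12.50 with phenytoin (median 12.31), from 12.42 to 12.99 in controls (median 12.57) and from 12.38 to 12.91 with levetiracetam (median 12.60). The groups overlapped at their edges, with 6 of 7 phenytoin arrays below every control array. The difference was -0.31 (SE 0.09, adjusted p = 0.0329). Tm7sf2 fell by 0.51 on the log2 scale (adjusted p = 0.0356), and a dim second probe set of Scap by 0.44. The count was 0 without filtering, 0 without phenytoin replicate 4 or control replicate 5 or 6, and 1 with the beta-actin ratio as a covariate. With that covariate Apoe, Tm7sf2 and the Scap probe set all lost their calls, so the 1 was another member probe set.

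Levetiracetam in frontal cortex called 0 of 48 by limma, beside 0% of all, with 3 of 48 at an unadjusted p under 0.05 beside 749 of all 18625, and the median over the 31 genes was -0.03. The smallest p belonged to Cyp27a1 (0.49, adjusted p = 0.954), then Lss (-0.34), Ebp (0.29) and Lrp1 (-0.24).

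Between the drugs in frontal cortex 5 of 48 probe sets were called, beside 10.8% of all. Cyp27a1 ran from 5.52 to 6.64 with phenytoin (median 6.36), from 6.66 to 7.60 with levetiracetam (median 7.01) and from 6.03 to 6.88 in controls (median 6.52). The drug groups did not overlap, and the control arrays overlapped both. The difference was -0.75 (SE 0.16, 1.68-fold, adjusted p = 0.00378) and was -0.65 without levetiracetam frontal cortex replicate 3. Abcg1 was 0.42 higher with phenytoin, and Tm7sf2 (-0.56), Apoe (-0.30) and a second probe set of Stard4 (-0.45) were lower. The beta-actin ratio was 1.58 ± 0.14 with phenytoin and 1.27 ± 0.19 with levetiracetam (SD, n = 7 each, exact permutation p = 0.00932, adjusted p = 0.0437). With that ratio as a covariate the calls of Tm7sf2 (adjusted p = 0.0549) and Apoe (adjusted p = 0.204) were lost, and Apoe was also not called without a filter (adjusted p = 0.058).

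**Figure D4:**
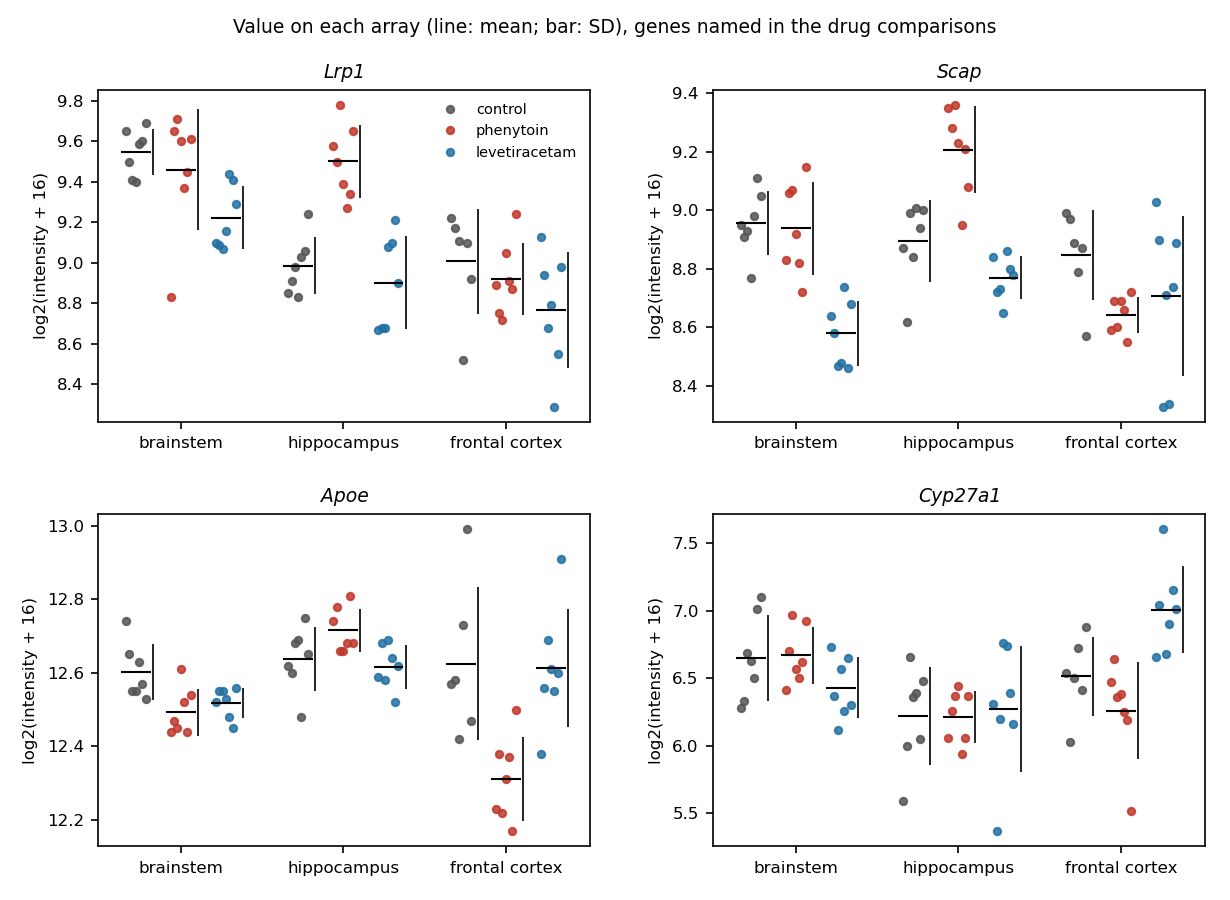
Normalized log2(intensity + 16) on each array (y axis) of Lrp1, Scap, Apoe and Cyp27a1 in 3 regions (x axis), with control arrays in grey, phenytoin in red and levetiracetam in blue; horizontal lines are group means and vertical bars the SD. Phenytoin arrays lie above both other groups for Lrp1 in hippocampus, and levetiracetam arrays lie below the controls for Scap in brainstem.

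The last test asked whether a drug's difference from control depended on the region. For phenytoin it did for 4 of 48 probe sets, beside 12.2% of all. Apoe differed by -0.11, 0.08 and -0.31 from controls in brainstem, hippocampus and frontal cortex (F = 10.8, adjusted p = 0.00261). Scap differed by -0.02, 0.31 and -0.20 (F = 9.87, adjusted p = 0.0045), and Lrp1 by -0.09, 0.52 and -0.09 (F = 9.65, adjusted p = 0.00506). The difference was highest in hippocampus for all 3 genes, and pairs of regions were not tested against each other. A dim probe set of Stard4 differed by 0.05, -0.50 and 0.39 (F = 7.18, adjusted p = 0.0202) while its brightest was not called, and the call was lost without control hippocampus replicate 2. Lrp1 was not called with the Gapdh ratio as a covariate. For levetiracetam 0 of 48 were called by limma, beside 0.0644% of all, with 4 of 48 at an unadjusted p under 0.05 beside 1726 of all 18625, a like share.

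Other genes of the pathway were taken from 4 lists, of which 38 of 44 genes have a probe set with a single symbol. Against hippocampus in control rats, 2 of 4 other synthesis genes, 4 of 9 other targets and partners of the sterol-sensitive activators, 4 of 6 oxysterol and LXR genes and 8 of 16 other lipoprotein and transport genes were higher in brainstem, and 0, 2, 2 and 3 were lower. Over the 35 genes tested 18 were higher and 7 lower, beside 29.5% and 26.9% of all probe sets. Apod, a glial lipocalin, was 2.33 higher than in hippocampus and 2.59 higher than in frontal cortex. Lcat, which esterifies cholesterol on lipoproteins, was 1.48 and 0.93 higher, Abca2, a transporter of oligodendrocytes, 1.43 in both, and Pltp, a phospholipid transfer protein, 1.05 and 1.38. Fasn, the fatty acid synthase, was 0.79 and 0.98 higher. Mylip, which degrades lipoprotein receptors, was lower (-0.88 and -0.31).

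Most of these genes did not pass in the drug comparisons. With levetiracetam in brainstem 1 of 35 rose and 5 fell, beside 9.24% of all probe sets called. With phenytoin 4 of 34 rose and 1 fell in hippocampus, beside 9.24%, and 1 of 35 rose in frontal cortex, beside 6.39%. Between the drugs 1 of 35 was higher with phenytoin in brainstem, beside 2.98%, and 8 of 34 passed in hippocampus, beside 16.8%. In frontal cortex 4 of 35 were higher with phenytoin and 2 lower between the drugs, beside 10.8%. With phenytoin in brainstem 0 of 35 tested passed by limma (3 at an unadjusted p under 0.05), and with levetiracetam Osbp (-0.34), Clu (-0.21), Abca2 (-0.38), Abca7 (-0.48) and Rxrb (-0.29) fell and Scd2, a fatty acid desaturase, rose (0.13). With phenytoin in hippocampus Acaca, the acetyl-CoA carboxylase (0.42), Abca2 (0.44), Abca7 (0.51) and Pltp (0.53) rose and Rnf139 (-0.38) fell. With phenytoin in frontal cortex Mbtps2, a protease that releases the sterol-sensitive activators, rose by 0.49. With levetiracetam 0 of 34 passed in hippocampus and 0 of 35 in frontal cortex by limma, with 2 and 2 at an unadjusted p under 0.05. Between the drugs Abca2 was 0.33 higher with phenytoin in brainstem. In hippocampus 8 passed, led by Abca7 (0.62), Ggps1 (-0.42), Rnf139 (-0.29) and Abca2 (0.40). In frontal cortex Scd2 (0.52), Rnf139 (0.38), Mbtps2 (0.52) and Cyp7b1 (0.51) were higher and Nr1h2 (-0.39) and Scd (-0.32) lower.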

How the data were processed

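The authors deposited 1 linear intensity per probe set and array for total RNA of 62 samples. Per the values, each array had been scaled to a trimmed mean of about 150 intensity units (2% trimmed at each end). For the array reader, its software and the genome build, nothing is given in the sources used here. Groups and replicate numbers came from the labels, which do not say whether the regions came from the same rats. No label says how the RNA of a group was collected, so p-values cover only the scatter among its samples, which may be technical.

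Values were floored at 0, transformed as log2(value + 16) and quantile normalized over the 26300 complete probe sets. Leaving out 57 control probe sets and the dimmest 40% of the others kept 18625 for testing. The missing values of 1 phenytoin hippocampus array stayed missing, so n was 6 there. limma 3.58.1 (R 4.3.3, eBayes with trend) was fitted on each region's 3 treatments for the drug comparisons and on all 9 groups for regions and for the F tests of drug by region. Tests were two-sided with Benjamini-Hochberg adjustment over all 18625 at 0.05. Control probe ratios and the spike-in signal were compared with exact permutation tests, adjusted over 9 comparisons of each measure. The models were tested on simulated data.

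A gene is represented by its brightest probe set. Every called member probe set is named where 12 or fewer were called, otherwise the largest each way, and where none was called the 4 smallest p. Per-array values are given for the smallest p of each drug comparison and the largest region differences. The members, lists and rules were chosen with earlier results of these data known. Alternatives were the deposited scale, a floor of 1, other filters, other arrays in the fit, array weights, the Gapdh or beta-actin ratio as a covariate, a replicate block, and leaving out arrays. Promoter sequences are those of RefSeq (GRCr8). Motifs were searched on both strands.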

Additional observations from a re-analysis of the deposited data

Results flagged for a closer look

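The difference between phenytoin and control depended on the region for 4 member probe sets by limma's F test: Apoe (adjusted p = 0.00261), Scap (adjusted p = 0.0045), Lrp1 (adjusted p = 0.00506) and a dim probe set of Stard4 (adjusted p = 0.0202). These are 4 of 48, beside 12.2% of all probe sets. Lrp1 was not called with the Gapdh ratio as a covariate (adjusted p = 0.1), nor Stard4 without control hippocampus replicate 2 (adjusted p = 0.0521).

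Among the 11 members whose values are given per array, 1 array lay far from the rest of its group in 7 of 99 groups. Over the brightest probe sets of all members analysed it was 26 of 279 groups. Chance alone gives about 1 in 20. Cyp27a1 was low at 5.37 in levetiracetam hippocampus replicate 2 (next 6.16) and at 5.52 in phenytoin frontal cortex replicate 7 (next 6.19). Cyp46a1 was low at 8.35 in levetiracetam hippocampus replicate 4 (next 8.71). Fdps was high at 10.51 in levetiracetam frontal cortex replicate 3 (next 9.91), the array of lowest weight. Lrp1 was low at 8.83 in phenytoin brainstem replicate 1 (next 9.37). Msmo1 was low at 10.04 in control frontal cortex replicate 2 (next 10.30) and high at 10.50 in phenytoin hippocampus replicate 7 (next 10.03), the array whose myelin marker level stood apart.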

How the results depend on the processing

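Of 238 counts of called member probe sets under 12 alternatives, 224 stayed within 1.5 times the reported count, and no gene named in the text reversed its sign while called. Of the 199 calls between regions of the brightest probe set of a gene, 181 held under all of the alternatives that could be run for them. Of the 37 drug and F-test calls, which include other probe sets of a gene, 15 did. Levetiracetam against control in brainstem called 2 with the other arrays in the fit, where 4.54% of all probe sets were called against 9.24% in the main fit. It called 2 with the beta-actin ratio as a covariate and 3 without the arrays labelled with both drugs. With 1 array left out it called 3 to 8, beside 1255 to 2171 of all probe sets. Phenytoin against control in hippocampus called 10 with array weights and 0 with the Gapdh ratio as a covariate. With 1 array left out it called 5 to 9, beside 904 to 2510 of all probe sets. Phenytoin against control in frontal cortex called 0 without a filter (3.40% of all) and 6 with the other arrays in the fit (10.8% of all). It called 9 with array weights, 1 with the beta-actin ratio (a probe set not called in the main fit) and 0 with the replicate block. With 1 array left out it called 0 to 4, beside 820 to 1672 of all probe sets. Phenytoin against levetiracetam in frontal cortex called 8 as deposited (11.4% of all) and 10 with the other arrays in the fit (17.0% of all). With 1 array left out it called 4 to 8, beside 1419 to 2225 of all probe sets. The F test for phenytoin called 7 with array weights. Brainstem against frontal cortex in controls called 23 with 1 probe set per gene, of the 31 genes left. Counts here without a value over all probe sets beside them are of members alone. The causes were not tested. The labels do not say what a replicate number marks. Same-numbered arrays of different treatments correlated above 0.1 (deviations from the group means) in 9 of 61 pairs, and those of different regions of a treatment in 36 of 61, where 94 of 122 arrays correlated best with their own number. Not every pair did, so no block was used, but the regions of equal number may come from the same rats. The replicate block changed no other count by over 1.5 times. The number of arrays limits precision, and dim probe sets are the least certain.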
